A study of Mus musculus with 4 samples.

Results

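The 8 genes described here, Otx1, Otx2, Six3, Sp8, Emx2, Lhx2, Nr2f1 and Nr2f2, encode transcription factors of the forebrain and the anterior neural plate. They were taken by name, as 8 of the 17419 genes listed in the normalized tables of the series. Their transcripts were scored in single cells of 4 mouse neural stem cell (NSC) lines. All of the lines came from epiblast stem cells (EpiSCs, pluripotent cells of the postimplantation embryo) of the 129 strain and were grown with EGF and FGF2, each at 10 ng/ml. XN4 and XN1 also received 10 µM XAV939, a Wnt antagonist, from different suppliers, CN4 received 2 µM of the Wnt agonist CHIR99021, and KN1 received neither. Each line is a single established line and was sequenced as 1 library, so no test between lines was possible, a difference between lines is also a difference between libraries, and the intervals below cover counting error only.

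Otx1 and Otx2 are homeodomain factors of the forebrain and midbrain, and Otx2 is needed for the anterior head to form. Six3 marks the most anterior neural plate and represses Wnt signaling there. Sp8 is a zinc finger factor of the anterior neural ridge and the early cortex, but it is also made in the limb ridge and the spinal cord. Emx2 and Lhx2 are homeodomain factors of the dorsal telencephalon. Nr2f1 and Nr2f2 (COUP-TFI and COUP-TFII) are orphan nuclear receptors of the caudal cortex, and outside the brain Nr2f2 is strong in mesenchyme and veins. Lowering the Wnt signal is known to favor anterior fates in the neural plate, and raising it to favor posterior fates.

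The genes lie on 8 chromosomes of GRCm38. With GENCODE M21, Otx1 is at chr11:21994764-22002897 and Otx2 at chr14:48657677-48673819, both on the minus strand. Six3 is at chr17:85613608-85629302, Sp8 at chr12:118846329-118852576, Emx2 at chr19:59458372-59465357 and Lhx2 at chr2:38339281-38369733, all on the plus strand. Nr2f1 is at chr13:78188973-78199757 and Nr2f2 at chr7:70351944-70366735, both on the minus strand.

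Because the lines differ in Wnt modulators, the 250 bases upstream of each RefSeq start were searched for CTTTGA, the core bound by the TCF/LEF factors, on both strands (reverse complement TCAAAG). RefSeq starts on GRCm38.p6 were found for 7 of the 8 genes, not for Otx1. The motif was present upstream of 2 of their 14 starts, 1 of Sp8 and 1 of Nr2f2, and upstream of 13.8% of all 32851 starts. The windows of a leading gene of XN1 (Otx2, chr14:48667645-48667894, minus strand), of KN1 (Sp8, chr12:118846983-118847232, plus strand) and of XN4 (Nr2f2, chr7:70366747-70366996, minus strand) are shown with the motif in capitals. The Otx2 window holds none.
Otx2: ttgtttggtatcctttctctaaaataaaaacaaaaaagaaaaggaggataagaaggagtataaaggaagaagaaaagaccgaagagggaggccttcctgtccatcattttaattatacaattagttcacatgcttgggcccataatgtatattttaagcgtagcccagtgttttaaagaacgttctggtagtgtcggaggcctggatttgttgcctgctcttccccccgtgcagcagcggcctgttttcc
Sp8: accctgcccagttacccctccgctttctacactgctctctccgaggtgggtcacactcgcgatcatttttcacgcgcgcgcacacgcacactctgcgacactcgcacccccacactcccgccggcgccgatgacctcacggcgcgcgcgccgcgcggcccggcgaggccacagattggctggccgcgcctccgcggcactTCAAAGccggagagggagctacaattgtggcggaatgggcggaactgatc
Nr2f2: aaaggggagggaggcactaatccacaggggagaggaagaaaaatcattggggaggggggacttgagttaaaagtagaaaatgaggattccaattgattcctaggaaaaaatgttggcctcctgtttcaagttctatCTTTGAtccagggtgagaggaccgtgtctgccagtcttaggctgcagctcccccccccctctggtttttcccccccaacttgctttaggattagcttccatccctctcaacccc

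Nr2f1 and Nr2f2 are close paralogs, and a read from a shared stretch could be given to either. Their annotated transcripts share a longest identical run of 59 bases, which lies inside both coding regions, from coding base 232 of Nr2f1 and 220 of Nr2f2, in the stretch for the zinc finger DNA-binding domain. Of the 31-base windows of the transcripts, 0.766% of those of Nr2f1 and 0.456% of those of Nr2f2 were shared. Otx1 and Otx2 share at most 18 bases in a row and no 31-base window. The run common to both nuclear receptors is shown in full.
Nr2f1 and Nr2f2: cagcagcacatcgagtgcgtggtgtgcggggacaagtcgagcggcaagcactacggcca

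The tables of all reads held 8741 cells of XN4, 14452 of XN1 and 18157 of CN4, with medians of 12615, 5981.5 and 9173 reads per cell. For KN1 a normalized table of 3975 cells with a median of 5862 reads was used. Normalized tables list fewer genes, and 6 of the 8 factors were listed in XN4 and 6 in XN1, but 4 in KN1 and 3 in CN4. A gene not listed in KN1 therefore has no value; within the cells of the normalized tables, the genes left out had reads in at most 9 cells in XN1 and CN4, and in XN4 33 of the 10064 left out had reads in 10 or more. KN1 stood apart with 7.39 reads per detected gene and cell, against 2.14 to 3.90 in the others, and with a median of 765.5 genes in cells thinned to 3200 reads, against 1648 to 1846. XN4 stood apart in its markers: Sox2 was detected in 0.561% of its cells, Hes5 and Fabp7 were at 0 cells (exact upper limit 0.0422%), and 5 of 11 neural stem cell markers reached 5% of cells, while 10 of 12 mesenchymal markers did, with Col3a1 in 97.7%. The same share was reached by 9 of the neural stem cell markers in XN1, 9 in KN1 and all 11 in CN4, and by 1, 0 and 1 of the mesenchymal markers. The 5 neural stem cell markers that XN4 did reach were Zeb2, in 57.9% of cells and more than in any other line, Notch1 in 21.7%, Msi1 in 17.8%, Prom1 in 9.08% and Nes in 8.56%. The markers of XN4 are thus mixed and in part against the NSC label, other measures of the line were not analysed here, and it is called by its line name throughout.

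Otx1, Otx2 and Six3 were at their highest in XN1. Reads of Otx1 were detected in 2159 of 14452 XN1 cells, or 14.9% (exact 95% interval 14.4 to 15.5), against 55 cells or 0.629% in XN4 and 5 cells or 0.0275% in CN4, and the gene was not listed in KN1. Otx2 was detected in 1454 cells or 10.1% of XN1 (9.58 to 10.6), in 33 cells or 0.378% of XN4 and in 9 cells or 0.0496% of CN4, and was likewise not listed in KN1. Six3 was found in 221 cells or 1.53% of XN1 (1.34 to 1.74), in 5 cells of XN4 and in 11 cells of CN4, and had no listing in KN1. The intervals of XN1 were far from those of XN4 and CN4 for all of these genes, although XN4 had the deeper cells.

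**Figure D1:**
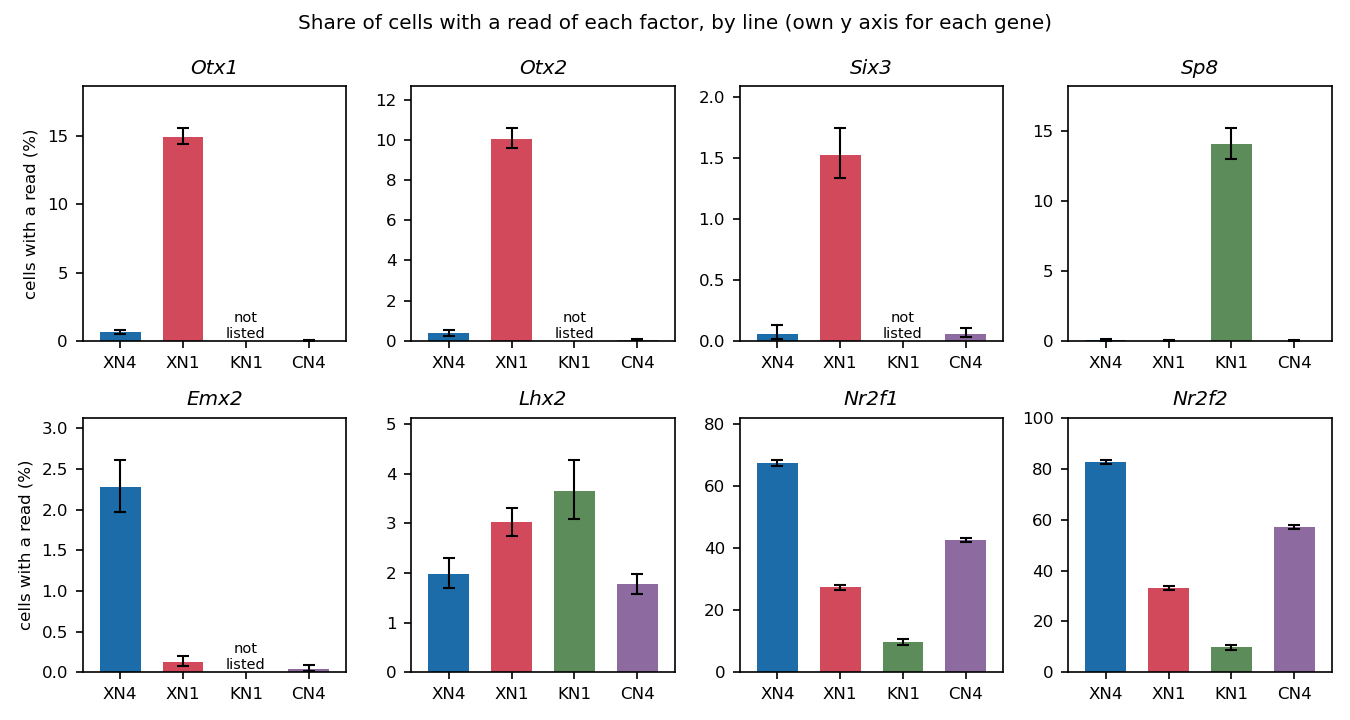
Each panel plots, for 1 gene with its own y axis, the percent of cells with at least 1 read in the 4 lines; bars are the share and error bars the exact 95% binomial interval. Otx1, Otx2 and Six3 stand highest in XN1, Sp8 in KN1 and Emx2 in XN4, while Nr2f1 and Nr2f2 fall in the order XN4, CN4, XN1, KN1.

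On the scale of summed reads, Otx1 reached 31.7 reads per 1000000 reads of the line (rpm) in XN1, 1.11 in XN4 and 0.0442 in CN4, which put XN1 28.5-fold above XN4 (24.3 to 33.7). Otx2 was 39.3-fold higher in XN1 than in XN4 (31.2 to 50.2), with 21.03 and 0.535 rpm. Six3 was at 3.10 rpm in XN1, 35.1-fold above CN4 (21.2 to 62.2), where it had 16 reads. The intervals of folds and rpm, here and below, treat each read as an independent count, but many reads can come from 1 cell. In XN4 the 156 reads of Otx1 came from 55 cells, with up to 29 in 1 cell. These intervals are therefore too narrow. XN1 and XN4 differed in these anterior factors although both were grown with a nominal 10 µM XAV939, and the effective dose was not measured here. They also differed in the supplier of the compound, and supplier, line and library cannot be told apart. Among the 309 genes that were listed in XN1 but in neither KN1 nor CN4, Otx1 ranked 3 and Otx2 ranked 4 by share of XN1 cells, and Six3 ranked 31. Otx1 and Otx2 were also listed in XN4. The set was picked by the same XN1 reads that give the ranks, so the ranks carry no weight of their own.

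The XN1 signal consisted mainly of single reads. Of the XN1 cells positive for Otx1, 73.5% had 1 read and the highest had 9, and of those positive for Otx2, 74.3% had 1 read and the highest had 6. With at least 2 reads required, 3.96% of XN1 cells were positive for Otx1 and 2.58% for Otx2. Detection rose with depth within the line: Otx1 was found in 8.52% of XN1 cells in the lowest quartile of total reads (median 3573) and in 22.1% in the highest (median 9446). The values for Otx2 were 5.70% and 15.9%. These shares are therefore those of cells in which a transcript was caught, and not of cells that express the gene.

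Sp8 was caught almost only in KN1. It was detected in 560 of 3975 KN1 cells, or 14.1% (13.0 to 15.2), with 3713 reads or 134.7 rpm. XN4 had 5 reads of Sp8 in 5 cells, and XN1 and CN4 had 2 reads in 2 cells each. Positive KN1 cells had a median of 5 reads and at most 33, and 17.5% of them had 1 read. Of the 602 genes that were listed in KN1 and in no other normalized table, Sp8 had reads in the most cells, and the next, Nkx6-1, a ventral neural tube factor, was found in 4.05%. These genes were picked by their KN1 reads, so the rank carries no weight of its own. KN1 was the line without any Wnt modulator, and it was also the library with the most reads per detected gene; what part the library had in the number of Sp8 reads per cell was not tested.

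Emx2 was at its highest in XN4, though it stayed rare. It was detected in 199 XN4 cells, or 2.28% (1.97 to 2.61), in 18 XN1 cells or 0.125% and in 8 CN4 cells or 0.0441%, and was not listed in KN1. With 2.94 rpm in XN4, it was 11.4-fold above XN1 (7.55 to 17.98) and 66.4-fold above CN4 (33.4 to 155), where it had 8 reads. After thinning to 3200 reads, 0.827% of XN4 cells remained positive, so the share depends on the depth of XN4.

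Lhx2 was the member with the most even shares. It was detected in 1.99% of XN4 cells (1.71 to 2.31), 3.02% of XN1 (2.75 to 3.32), 3.65% of KN1 (3.09 to 4.28) and 1.77% of CN4 (1.59 to 1.98). The intervals of KN1 and XN1 overlapped, as did those of XN4 and CN4, and both of the first pair were above both of the other pair. The place of XN1 turned with the minimum of reads: with at least 2 reads, XN4 was at 0.961% (0.767 to 1.19) and XN1 at 0.623% (0.501 to 0.765). By summed reads in the normalized tables, KN1 stood apart with 29.1 rpm, against 7.78 in XN1, 3.25 in XN4 and 3.05 in CN4. XN4 and CN4 were indistinguishable on this scale, with a ratio of 0.993 (0.861 to 1.15) in the tables of all reads, and XN1 was 2.38-fold above XN4 (2.08 to 2.73). That turn was seen at unequal depth. In cells thinned to 3200 reads, XN1 was at 2.05% (1.58 to 2.60) and XN4 at 0.709% (0.455 to 1.05). With at least 2 reads in thinned cells they were at 0.160% and 0.0591%, with overlapping intervals. Lhx2 and Emx2 overlap in the dorsal telencephalon. Among XN4, XN1 and CN4, where both have values, they differed in order with 1 read and by rpm. With at least 2 reads in cells that were not thinned, both fell in the order XN4, XN1, CN4.

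Nr2f1 and Nr2f2 were by far the most widely detected, and they followed the same order. Nr2f1 was detected in 67.6% of XN4 cells, 42.7% of CN4, 27.5% of XN1 and 9.76% of KN1. Nr2f2 was detected in 82.6% of XN4 cells, 57.0% of CN4, 33.3% of XN1 and 9.86% of KN1. No interval of a line overlapped that of another for either gene, and the order XN4, CN4, XN1, KN1 was the same in thinned cells, with at least 2 reads, and without the 5% of cells with the most reads. The line with the Wnt agonist thus stood between the XAV939 lines, not at an end.

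The distances between lines depended on the scale. In the normalized tables Nr2f1 reached 270.0 rpm in XN4, 108 in CN4, 75.03 in XN1 and 72.8 in KN1. Nr2f2 reached 603 rpm in XN4, 196 in CN4, 106 in XN1 and 88.0 in KN1. XN1 and KN1 were thus 1.03-fold apart in reads for Nr2f1 and 1.21-fold for Nr2f2. Positive KN1 cells had a median of 4 reads of Nr2f1 and 5 of Nr2f2, against 1 and 1 in XN1, and KN1 had more reads per detected gene over all its genes, as given above. XN4 was 3.01-fold above XN1 for Nr2f1 (2.92 to 3.09) and 5.18-fold for Nr2f2 (5.06 to 5.31) in the tables of all reads. XN4 was 2.32-fold above CN4 for Nr2f1 (2.27 to 2.36) and 2.76-fold for Nr2f2 (2.72 to 2.80) in the tables of all reads. In the normalized tables these folds were 2.49 and 3.07 by rpm, but 1.71 and 1.54 by detections, under 2-fold for both.

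XN4, the line with the most Nr2f1 and Nr2f2, also had the most summed reads of the mesenchymal markers. In the normalized tables, the 12 markers summed to 8411 rpm in XN4 with all listed, 199.8 in CN4 with 10 listed, 107 in XN1 with 7 and 22.6 in KN1 with 6. The order of the sums is that of both receptors, but Col3a1 alone gave 5474 rpm of the XN4 sum, and not every marker followed it. Col1a2 was found in more cells of XN1 than of XN4 (24.0% and 6.72%), Twist1 in more of XN1 than of CN4 (3.01% and 0.551%), and Acta2 was at 10.2 rpm in KN1 and 6.59 in XN1 against 5.01 in XN4 in the normalized tables. Col3a1 and Prrx1, a mesenchymal homeodomain factor, were found in 97.7% and 86.7% of XN4 cells, and Prrx1 also in 38.8% of CN4, 4.82% of XN1 and 0.931% of KN1 cells. Within XN4, Prrx1 was found in 91.6% of Nr2f1-positive cells and 76.5% of the others, which within strata of total reads was a ratio of 1.01 (0.987 to 1.04). In XN1, Nr2f2-positive cells had Prrx1 in 6.40% against 4.02% of the others, a ratio of 1.21 within the same strata (1.08 to 1.35), and Nr2f1-positive cells gave 1.02 (0.884 to 1.16). In CN4 the ratios were 1.07 (1.03 to 1.11) for Nr2f1 and 1.05 (1.02 to 1.08) for Nr2f2. The part of a mesenchymal state in the XN4 level was not tested.

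**Figure D2:**
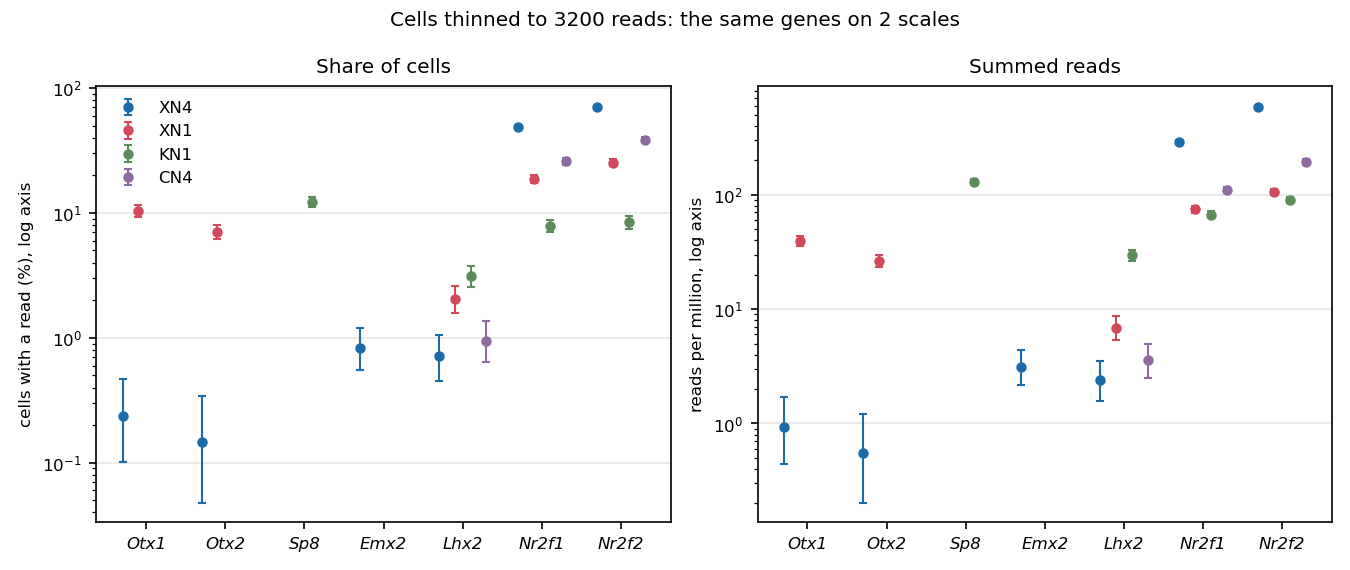
Cells of the normalized tables thinned to 3200 reads, with the percent of cells with a read on the left and rpm on the right, both on log axes; points are lines and error bars are exact 95% intervals of counting error. Nr2f1 and Nr2f2 in KN1 lie well below XN1 by share of cells but next to XN1 by reads, and a gene that a table does not list has no point.

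Counted over the comparisons, all 7 factors with at least 30 reads in XN4 or XN1 were over 2-fold apart in rpm, where 37.9% of all 14541 genes tested were. The count was 6 of 6 between XN4 and KN1 (53.1% of all genes), 4 of 5 between XN4 and CN4 (38.5%), 5 of 7 between XN1 and KN1 (53.4%), 4 of 6 between XN1 and CN4 (20.6%) and 3 of 4 between KN1 and CN4 (48.8%). A factor that reached 30 reads through a single line had to differ, so these counts describe the members and carry no weight of their own. The exceptions were Lhx2 between XN4 and CN4 at 1.07-fold, and Nr2f1 and Nr2f2 among XN1, KN1 and CN4 at 1.03-fold to 1.84-fold except for Nr2f2 between KN1 and CN4, at 2.23-fold. The median log2 ratio over all genes tested lay between -0.12 and 0.17 in every pair.

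Transcripts from the opposite strand overlap several of these genes, and whether reads were counted by strand is not given in the sources used here, so sense and antisense reads may not be told apart. A830082K12Rik, a noncoding gene that shares exon sequence with Nr2f1 on the opposite strand, was detected in 37.4% of XN4 cells, 17.4% of CN4, 11.3% of XN1 and 7.87% of KN1. By share of cells that is the order of Nr2f1 itself, but by reads in the normalized tables A830082K12Rik was at 93.5 rpm in XN4, 67.9 in KN1, 35.6 in CN4 and 30.1 in XN1. Of the A830082K12Rik-positive cells, 76.6% in XN4 and 14.4% in KN1 also had Nr2f1, beside 67.6% and 9.76% of all cells of those lines. Emx2os, antisense to Emx2, followed Emx2, with 219 cells or 2.51% in XN4, 12 cells in XN1 and 3 in CN4, and 33 XN4 cells had both. Otx2os1, antisense to Otx2, did not follow Otx2. It was found in 0.664% of XN4 cells, 0.567% of XN1, 1.23% of KN1 and 0.220% of CN4, and 7 XN1 cells had both.

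To see whether the factors were caught in the same cells, the number of cells with both transcripts was divided by the number expected if detection was independent within each of 20 strata of total reads. The Poisson intervals of these ratios take no account of the fixed numbers of positive cells. For common genes they are too wide, so an interval that includes 1 does not show that there was no excess. Otx1 and Otx2 were both found in 280 XN1 cells, where 249.2 were expected, a ratio of 1.12 (0.996 to 1.26). Nr2f1 and Nr2f2 were found together in 5188 XN4 cells, where 5120.7 were expected, a ratio of 1.01 (0.986 to 1.04), and in 1561 XN1 cells, a ratio of 1.10 (1.04 to 1.15). In CN4 the ratio was 1.05 (1.02 to 1.08) over 4974 cells, and in KN1 it was 1.33 (1.02 to 1.70) over 63 cells. The KN1 interval included 1 with strata of genes detected, at 1.29 (0.988 to 1.64), and without the 5% of cells with the most reads, at 1.26 (0.920 to 1.69), and that of XN1 did with at least 2 reads, at 1.09 (0.951 to 1.25). Most intervals included 1. Intervals above 1 were also seen in XN1 for Otx1 with Nr2f2, at 1.09 (1.02 to 1.16), for Otx2 with Nr2f1, at 1.10 (1.01 to 1.21), and for Otx2 with Nr2f2, at 1.12 (1.04 to 1.22). With at least 2 reads, the intervals of both Otx2 pairs included 1, at 1.24 (0.928 to 1.62) and 1.18 (0.925 to 1.48), and that of Otx2 with Nr2f1 also did without the 5% of cells with the most reads, at 1.10 (0.999 to 1.21). Emx2 and Lhx2 were both found in 16 XN4 cells against 6.60 expected, a ratio of 2.42 (1.39 to 3.94), but with at least 2 reads in 2 cells against 1.85 expected, a ratio of 1.08 (0.131 to 3.90). Of the 39 line and pair combinations with at least 5 cells expected, none had an interval wholly below 1.

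**Figure D3:**
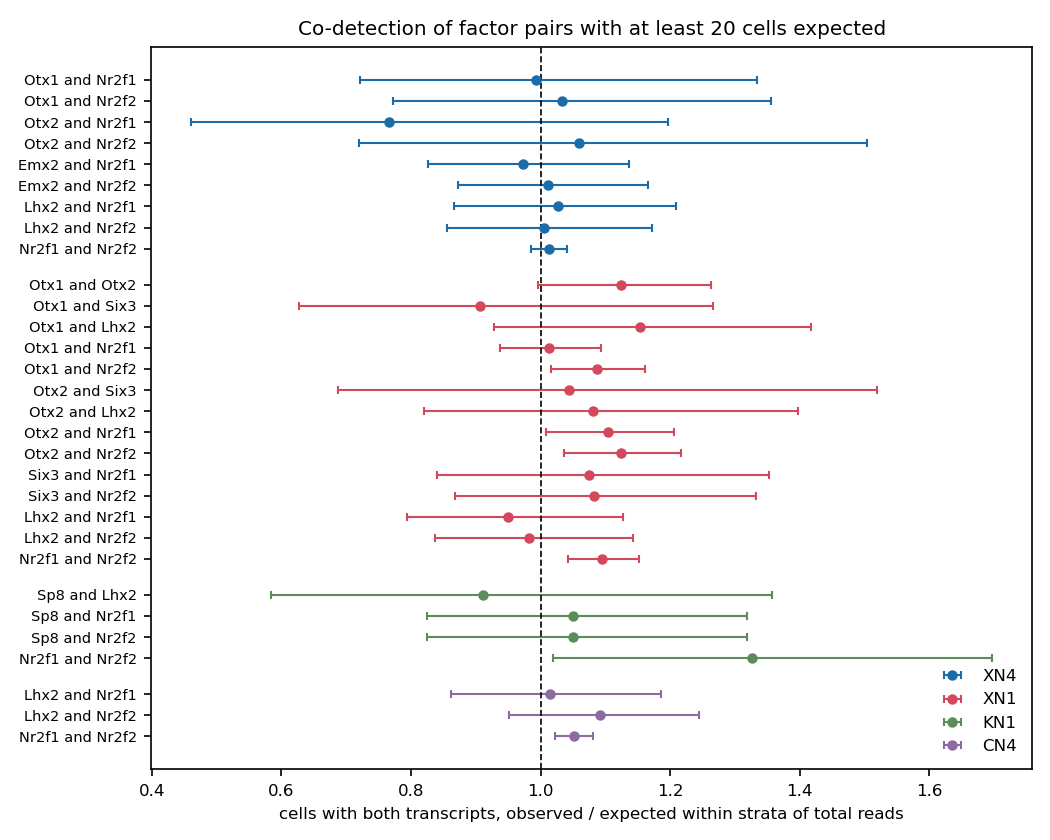
The ratio of observed to expected cells with both transcripts is plotted on the x axis for each pair with at least 20 cells expected, grouped and colored by line; bars are exact 95% Poisson intervals and the dashed line marks a ratio of 1. Most intervals cross 1, and those of Nr2f1 with Nr2f2 in XN1, KN1 and CN4 lie just above it. So do those in XN1 of Otx1 with Nr2f2, Otx2 with Nr2f1 and Otx2 with Nr2f2. The intervals ignore the fixed numbers of positive cells and are too wide for common genes.

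Per cell, at least 1 of the 6 factors other than Nr2f1 and Nr2f2 was caught in 26.4% of XN1, 17.1% of KN1, 5.05% of XN4 and 1.96% of CN4 cells. In cells thinned to 3200 reads, the shares were 19.2%, 15.1%, 1.89% and 0.95%, the same order. KN1 lists 2 of these 6 factors, Sp8 and Lhx2. The thinned cells are those of the normalized tables, where CN4 listed only Lhx2, so its 0.95% is the share of Lhx2. XN4 listed neither Six3 nor Sp8 there, and XN1 neither Sp8 nor Emx2. None of the 8 factors was caught in 72.2% of thinned KN1 cells and in 16.6% of thinned XN4 cells.

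The anterior factors were also read beside genes of more posterior regions. In XN1, 52.8% of Otx1-positive cells had a read of at least 1 of 14 Hox genes (hindbrain and spinal cord identity), against 44.8% of the other cells, and within strata of total reads the ratio of observed to expected cells was 1.04 (0.976 to 1.10). For Otx2-positive cells the ratio was 1.02 (0.951 to 1.10) and for Six3-positive cells 1.00 (0.825 to 1.20). In KN1, 70.9% of Sp8-positive cells had a Hox read against 54.8% of the others, with a ratio of 1.08 (0.980 to 1.20). These Poisson intervals take no account of the fixed number of positive cells and are wide where a list is found in many of them, so an interval that includes 1 does not show that there was no difference. For Sp8 the exact interval of the share itself, 66.9 to 74.6%, lay above the 65.4% expected. So did that of Nr2f2-positive XN1 cells for Hox reads, 50.3 to 53.1% against 49.99%, and that of Nr2f1-positive CN4 cells, 98.01 to 98.6% against 97.9%. With strata of genes detected in place of total reads, the expected share for Nr2f2 in XN1 was 50.5%, inside its interval. In XN1, Otx1-positive cells had a read of at least 1 of 8 genes of the midbrain-hindbrain boundary, En1 and En2 among them, in 45.4% (43.3 to 47.6), where 42.9% was expected, a ratio of 1.06 (0.994 to 1.13). Nr2f2-positive XN1 cells had one in 43.5% (42.08 to 44.9), where 42.03% was expected. With strata of genes detected the expected share was 42.4%, inside that interval. Lhx2-positive CN4 cells had a boundary read less often than expected, at 0.802 (0.668 to 0.955), while Nr2f1 and Nr2f2 there gave 0.999 and 0.997 with intervals that included 1.

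In XN4 the rare cells with Otx1, Otx2, Emx2 or Lhx2 differed from the rest in reads of the boundary list, mostly of En1 or En2. A boundary read was found in 21.8% of the 55 Otx1-positive cells and 27.3% of the 33 Otx2-positive cells, against 2.30% and 2.33% of the others, with ratios within strata of total reads of 5.40 (2.79 to 9.43) and 8.80 (4.02 to 16.7). Emx2 and Lhx2 both gave 3.13 (1.96 to 4.74 and 1.88 to 4.89), whereas Nr2f1 gave 0.966 (0.821 to 1.13) and Nr2f2 1.00 (0.865 to 1.15). For Hox reads in XN4 the ratios were 2.15 (0.928 to 4.23) for Emx2, 2.31 (0.927 to 4.75) for Lhx2 and 1.58 (0.191 to 5.71) for Otx1. No Otx2-positive XN4 cell had a Hox read. En1 and En2, homeodomain factors of the midbrain and hindbrain, are named here after their values were seen. Any boundary read was in 12 of the Otx1-positive, 9 of the Otx2-positive, 22 of the Emx2-positive and 19 of the Lhx2-positive cells. The list genes other than En1 and En2 are not given singly. En2 was found in 9 of the 55 Otx1-positive cells, a ratio of 13.8 (6.33 to 26.3), and En1 in 2 of them, a ratio of 2.59 (0.313 to 9.34). En1 was found in 8 of the 33 Otx2-positive cells, a ratio of 20.7 (8.93 to 40.8), and En2 in 1 of them. En1 was in 15 of the 174 Lhx2-positive cells, a ratio of 6.70 (3.75 to 11.1), and in 10 of the 199 Emx2-positive cells, a ratio of 3.98 (1.91 to 7.32). En2 was in 12 of the Emx2-positive cells, a ratio of 5.50 (2.84 to 9.61), but in 1 of the Lhx2-positive cells. These cells carried the mesenchymal markers of their line, with Col3a1 in 97.0% to 100% and Prrx1 in 90.9% to 97.1%. Fabp7, in 85.5% of XN1 and 98.5% of CN4 cells, was at 0 in XN4, these cells included.

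**Figure D4:**
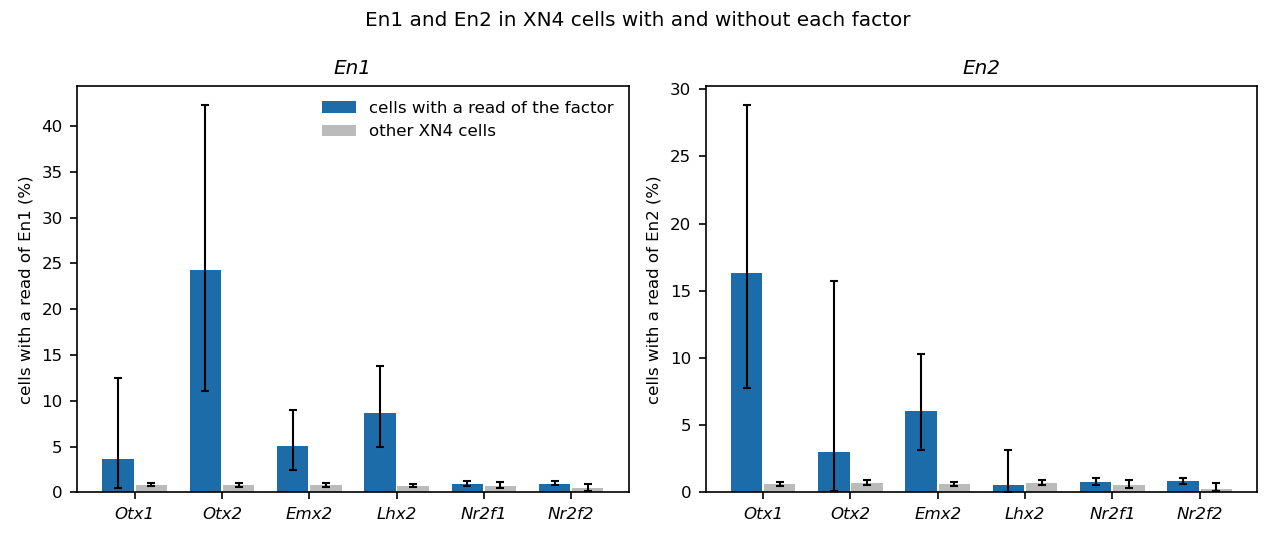
Percent of XN4 cells with a read of En1 (left) or En2 (right), for cells with a read of each factor (blue) and all other XN4 cells (gray), with exact 95% binomial intervals. The intervals lie above those of the other cells for En1 with Otx2, Emx2 and Lhx2 and for En2 with Otx1 and Emx2, and those of Nr2f1 and Nr2f2 overlap them.

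To compare across the cell cycle, the factors were scored separately in cells with reads of at least 3 of 12 G2-M genes and in the others, all thinned to 3200 reads. The ratio of the shares was highest for Lhx2 in XN1, with 4.82% of G2-M cells (3.48 to 6.49) against 1.01% of the others (0.641 to 1.51). Nr2f1 in KN1 was found in 12.3% against 5.82%, Nr2f2 in KN1 in 10.9% against 7.25%, and Nr2f2 in XN1 in 30.2% against 23.3%, all with intervals that did not overlap. Nr2f2 in CN4 gave 42.1% against 34.4%, and Otx2 in XN1 9.18% (7.32 to 11.3) against 6.19% (5.23 to 7.26), again apart, as was Sp8 in KN1 with 14.7% (12.7 to 17.0) against 11.1% (9.88 to 12.5). In XN4 no such gap was seen, with Nr2f1 at 48.9% and 49.1% and Nr2f2 at 68.8% and 70.8%. For the other factors and lines the intervals overlapped. Whether G2-M cells also had more genes caught at the same number of reads was not tested.

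**Figure D5:**
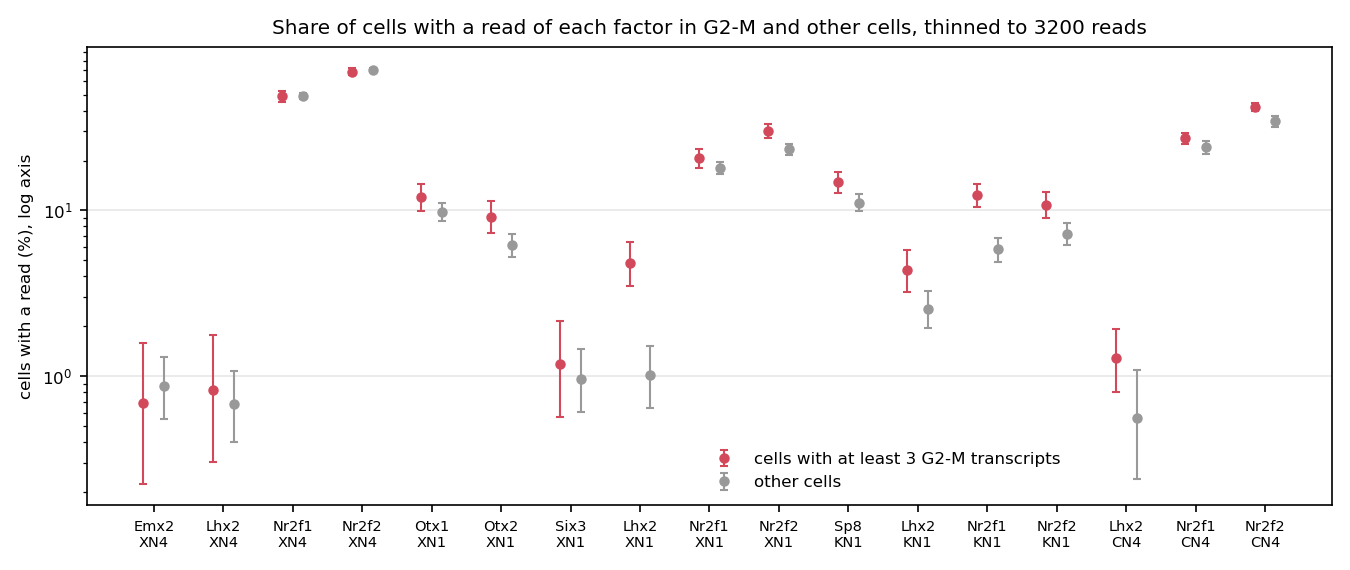
Percent of cells with a read of each factor on a log axis, in cells with at least 3 G2-M transcripts (red) and other cells (gray) of each line, thinned to 3200 reads, with exact 95% intervals; pairs with at least 20 positive cells are shown. Lhx2 in XN1 shows the widest gap on the log axis, and the pairs of XN4 overlap.

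Few other genes of the anterior brain were caught. Of a list of 19 further factors of the forebrain and diencephalon, Sp9, a paralog of Sp8, was detected in 9.90% of XN4 cells (9.28 to 10.5) and in under 0.2% of XN1 and CN4 cells. Barhl2, a diencephalon factor, was found in 1.71% of XN1 cells, and no other gene of the list reached 1% of the cells of a line. None of the 19 was listed in KN1, the line with Sp8. The XN1 cells with Otx2 had a read of the list in 3.92%, against 2.12% of other cells, a ratio of 1.46 (1.10 to 1.89) within strata of total reads, whereas the intervals of the other 5 factors compared in XN1 included 1, with ratios of 0.966 to 1.09.

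The genes with the most similar levels over the 4 lines, among 13772 compared by the distance of centered log2(rpm + 1) values, were as follows. The nearest to Otx1 was Otx2, with Serpina3n next, and the nearest to Otx2 was Rem1, with Otx1 next. For Sp8 they were Kcnb2, a potassium channel gene with 349.7 rpm in KN1 and under 1 in the others, and Gm45881. Mical2, at 94.4 rpm in KN1, 26.2 in XN1, 14.1 in CN4 and 11.1 in XN4, and Svop were nearest to Lhx2. Mocs1 and Il1rl2 were nearest to Nr2f1, and Wnt9a and 5033430I15Rik to Nr2f2, where Il1rl2, Wnt9a and 5033430I15Rik had under 5 rpm in each line. For Six3 they were Rgs14 and Glycam1, and for Emx2 B830012L14Rik and P2rx5, all with values in 1 line only. Otx1 and Otx2 were the only members among the nearest genes of another member.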

How the data were processed

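Single-cell RNA was captured with the BD Rhapsody whole transcriptome system from 1 library for each line, in cells that had been stored in a preservative. The files deposited for XN4, XN1 and CN4 hold counts of reads per gene and cell (not of molecular identifiers), made with pipeline version 1.12.1 on GRCm38 with GENCODE M19, with reads in introns included. A further file deposited for every line holds values on a natural log scale, the ln of 1 plus reads scaled to 10000 per cell, in a sample of about 4000 cells, made with Seurat 4.3.0 without ribosomal protein and mitochondrial genes. These were turned back into reads by the smallest step of each cell, and all values were whole within 0.01. No doublet caller was run, and free RNA was not measured, as no cells known to lack these genes were set apart.

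Samples were grouped by the line in their labels. Totals in the tables of all reads were 140311227 (XN4), 93096507 (XN1) and 180825519 (CN4), and the normalized tables held 41539513 (XN4), 19271688 (XN1), 27563145 (KN1) and 22947874 (CN4). Pairs of lines shared 14 to 21 cell indices in the normalized tables and 37 to 320 in the tables used for the shares. A cell was positive with at least 1 read. Shares came from the tables of all reads, or the normalized table for KN1, with exact (Clopper-Pearson) 95% intervals, and ratios with exact Poisson intervals. For comparisons over all genes, rpm from the normalized tables were used, for genes with at least 30 reads in 1 of the lines, with unlisted or lower values set to a floor of 3 reads. Thinning to 3200 reads left out 290 to 776 cells per line. In XN4, 33 genes with reads in 10 or more cells were missing from the normalized table and were left out. The named genes were all members, list genes in at least 5% of the cells of a line, the 2 nearest genes to each member and overlapping transcripts. Genes named outside this rule are Barhl2, Nkx6-1 and markers given beside a result. The members and lists were chosen with earlier results of these data known. Fold calls and ratios were run on simulated data as a check of the code. Reads were drawn independently, without clustering in cells, and rare factors were not simulated. The runs therefore do not show how well rare factors are measured. Python 3.11.15, numpy 2.4.6, scipy 1.17.1 and pandas 2.3.3 were used. RefSeq and GENCODE M21 gave sequences and positions.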

Additional observations from a re-analysis of the deposited data

How the results depend on the processing

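No paired analysis was possible because each line has 1 library, and for the same reason no replicate could be left out. With unlisted genes left out instead of set to 3 reads, fewer factors are compared. Those over 2-fold apart were then 3 of 3 between XN4 and KN1 and 2 of 3 between XN4 and CN4. They were 1 of 3 between XN1 and KN1 and 1 of 3 between XN1 and CN4. Between XN4 and CN4 the count was 2 of 5 on the scale of detected cells and 2 of 5 at 4-fold. The share over all genes was not computed under these settings. Without strata of depth, the co-detection ratio summed over pairs was 1.31 in KN1, 1.19 in XN1, 1.13 in CN4 and 1.08 in XN4, against 1.03, 1.08, 1.05 and 1.01 within strata. With at least 2 reads required it was 1.16 in XN1 and 1.12 in CN4; the cause was not tested. With at least 2 reads in cells that were not thinned, the order of XN4 and XN1 turned for Lhx2 (0.961% and 0.623% of cells). In thinned cells with 1 read, that of CN4 and XN4 turned (0.95% and 0.709%, with overlapping intervals). With at least 2 reads some co-detection ratios crossed 1, with intervals that include 1, as for Otx1 with Otx2 in XN1 (0.972) and Otx2 with Lhx2 in XN1 (0.606), while Otx1 with Lhx2 in XN1 rose from 1.15 (0.928 to 1.42) to 2.81, with an interval wholly above 1 and 13 cells against 4.63 expected. Of the co-detection ratios of single pairs under the alternatives, 128 stayed within their interval and 23 did not, and of the shares of cells, 33 did and 79 did not. With strata of genes detected in place of total reads, an alternative chosen after seeing the data, all 52 ratios of list reads in cells with a factor stayed within their Poisson intervals. For the boundary genes in XN4 they were 5.58 for Otx1, 8.42 for Otx2, 2.99 for Emx2 and 3.02 for Lhx2. For Nr2f2-positive XN1 cells the expected shares, 50.5% for Hox and 42.4% for boundary reads, then lay inside the exact intervals of the shares. Another, with unlisted genes set to 124 reads, the most of a left-out gene, was also chosen after seeing the data and moved no count by over 1.5 times. Depth limits the rare factors: Six3 in XN4, Sp8 outside KN1 and Emx2 in CN4 rest on 8 reads or fewer.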

Other observations

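With at least 2 reads required, Sp8 was positive in 11.6% of KN1 cells, against 14.1% with 1 read, whereas Otx1 fell to 3.96% of XN1 cells, and in XN4, CN4 and XN1 no cell had 2 reads of Sp8. With the same minimum, Nr2f2 was positive in 71.7% of XN4, 35.9% of CN4, 12.8% of XN1 and 8.08% of KN1 cells. Lhx2 was positive in 2.82% of KN1 cells, against 0.961% of XN4, 0.623% of XN1 and 0.485% of CN4 cells. These are reads and not molecules. The reads per detected gene and cell were 7.39 in KN1, 3.90 in XN4, 2.40 in CN4 and 2.14 in XN1. What part this had in the shares with at least 2 reads was not tested.

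Within lines detection rose with depth. From the lowest to the highest quartile of total reads, Emx2 in XN4 went from 0.366% to 5.26% of cells and Lhx2 in XN4 from 0.229% to 4.12%. Nr2f2 went from 60.2% to 98.1% in XN4, from 37.6% to 74.7% in CN4 and from 5.23% to 15.9% in KN1. Cells of XN4 with Otx1 had a median of 25246 reads, against 12615 over all XN4 cells.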
